A study of Mus musculus with 8 samples.

Results

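Wt1, Gata4, Nr5a1, Nr0b1, Lhx9, Emx2, Irx3, Msx1 and Cited1, transcriptional regulators of the somatic cells of the embryonic gonad, were followed across 8 mouse gonad samples hybridised to Affymetrix MG_U74Av2 arrays. The 9 genes were chosen by name. Of them, 8 had at least 1 probe set on the array, and Emx2 had none in the annotation used here. The 8 genes were represented by 14 of the 12488 probe sets, and 10 of these 14 were above the detection floor on at least 2 arrays and entered the fit together with all 8452 probe sets that passed the same filter. There was 1 array for each combination of sex, genotype and stage: Wnt4 knock-out (KO) and wild-type (WT) males at E14.5, KO and WT females at E14.5, KO and WT males at E12.5, and KO and WT females at E12.5. E12.5 and E14.5 are embryonic days, and embryos were picked for stage by their morphology. The labels give neither the strain nor the kind of knock-out allele, nor how many gonads went into an array, and what the groups share is that gonads were dissected and frozen until the genotype was known. No group had a replicate, so every standard error below rests on the differences left over between sexes, genotypes and stages after the fit, with 2 residual degrees of freedom.

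The gonad arises as a bipotential ridge whose somatic cells later become Sertoli and Leydig cells in a testis or pregranulosa cells in an ovary. Wt1, Gata4, Lhx9 and Emx2 are needed to build and maintain this ridge, and they act upstream of Nr5a1 (steroidogenic factor 1), a nuclear receptor that drives steroidogenic genes and Amh. Nr0b1 (Dax1) is an orphan nuclear receptor that represses the activity of Nr5a1. The homeobox genes Irx3 and Msx1 mark the fetal ovary more than the fetal testis, and Msx1 responds to BMP signals. Cited1 is a coactivator without DNA binding of its own. Wnt4 is a secreted signal needed for ovary development, and gonads of females lacking it take on some testis features.

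The promoters of Nr0b1 and Lhx9 are shown because both genes differed between the sexes at E12.5, and those of Irx3 and Msx1 because these genes had the widest KO minus WT differences. Each sequence is the 250 bases before an annotated start, read 5′ to 3′ along the gene's strand, from RefSeq on GRCm38.p6. For Lhx9 this start lies inside the annotated gene (chr1:138825186-138848839), so its window is not the stretch before the gene's outer end. The Nr0b1, Irx3 and Msx1 windows directly adjoin the annotated gene. Entries were matched for 6 of the 9 genes, Emx2 and Cited1 included. Capitals mark matches on either strand to 4 searched motifs: AGGTCA, the core bound by Nr5a1-type receptors, AGATAA or the same with a leading T or a final G for GATA factors, CTTTGAA or the same ending in AT, TA or TT for TCF/LEF factors, and TAATTA, the homeodomain core.
Nr0b1 (chrX:86191525-86191774, plus strand): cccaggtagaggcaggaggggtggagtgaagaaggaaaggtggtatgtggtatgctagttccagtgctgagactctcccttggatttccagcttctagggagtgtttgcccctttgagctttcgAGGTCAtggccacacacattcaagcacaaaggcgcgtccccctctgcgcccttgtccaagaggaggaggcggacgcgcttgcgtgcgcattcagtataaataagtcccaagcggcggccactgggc
Lhx9 (chr1:138842445-138842694, minus strand): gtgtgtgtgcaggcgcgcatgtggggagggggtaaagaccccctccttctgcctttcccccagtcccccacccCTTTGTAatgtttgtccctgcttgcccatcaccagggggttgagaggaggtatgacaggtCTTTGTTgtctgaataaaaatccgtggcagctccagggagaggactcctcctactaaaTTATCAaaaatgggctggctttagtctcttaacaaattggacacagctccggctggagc
Irx3 (chr8:91801655-91801904, minus strand): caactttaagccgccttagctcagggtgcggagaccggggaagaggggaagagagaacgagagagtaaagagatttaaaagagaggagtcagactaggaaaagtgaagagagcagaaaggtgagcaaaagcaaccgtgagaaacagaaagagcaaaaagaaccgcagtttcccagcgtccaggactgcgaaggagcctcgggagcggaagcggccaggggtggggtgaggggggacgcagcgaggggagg
Msx1 (chr5:37824586-37824835, minus strand): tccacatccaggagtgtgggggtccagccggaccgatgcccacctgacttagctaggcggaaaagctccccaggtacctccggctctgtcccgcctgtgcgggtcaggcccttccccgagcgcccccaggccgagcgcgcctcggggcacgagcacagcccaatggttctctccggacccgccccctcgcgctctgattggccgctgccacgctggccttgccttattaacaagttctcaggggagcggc
The Nr0b1 window held AGGTCA from 126 to 121 bases before the start, a motif present in 4607 of 32851 promoter windows of this length. The Lhx9 window held CTTTGTA from 177 to 171 bases and CTTTGTT from 117 to 111 bases before the start, and 14.8% of windows hold a TCF/LEF match. It also held TGATAA on the opposite strand, from 59 to 54 bases before the start, and 26.5% of windows hold a GATA match. TAATTA occurs in 4.84% of windows. None of the 4 motifs lies in the Irx3, Msx1 or Emx2 window. A match is only a match of letters.

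Values are centred log2 signals, in which each array's median was set to 7.51. A signal of 6.99, the 40th percentile over all arrays, was taken as the floor, and values under it were raised to it before fitting. The male arrays at E14.5 stood apart from all others. Over the kept probe sets they correlated with each other at 0.992 but with the other 6 arrays at 0.776 to 0.825, whereas those 6 correlated at 0.962 to 0.995 among themselves. Fitted results that involve the E14.5 males are read against the share of all probe sets that passed. Wnt4 signal was lower in KO than in WT in all 4 pairs: 9.19 against 9.42 in males at E14.5, 8.32 against 9.45 in females at E14.5 (the array labelled WT female), 8.34 against 9.26 in males at E12.5, and 8.59 against 10.19 in females at E12.5. Whether this probe set lies within the deleted stretch was not given, so it is a limited check of the genotype. Xist was above the floor only on the 4 female arrays, at 7.10 to 8.13. Eif2s3y, encoded on the Y chromosome, was above the floor on 3 of the 4 male arrays but also, at 7.63, on the WT female E14.5 array, against 4.86 in KO females at E14.5, 6.04 in KO females at E12.5 and 5.36 in WT females at E12.5. That array also had Cyp17a1, a Leydig cell enzyme of androgen synthesis, at 10.36, with KO females of the same stage at 8.13. Its Xist signal, 7.10, was the lowest of the 4 female arrays. Whether it holds RNA of male gonads was not tested. Every WT female value at E14.5 below comes from this array, and each pooled or fitted E14.5 difference that uses females rests on it in part.

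**Figure D1:**
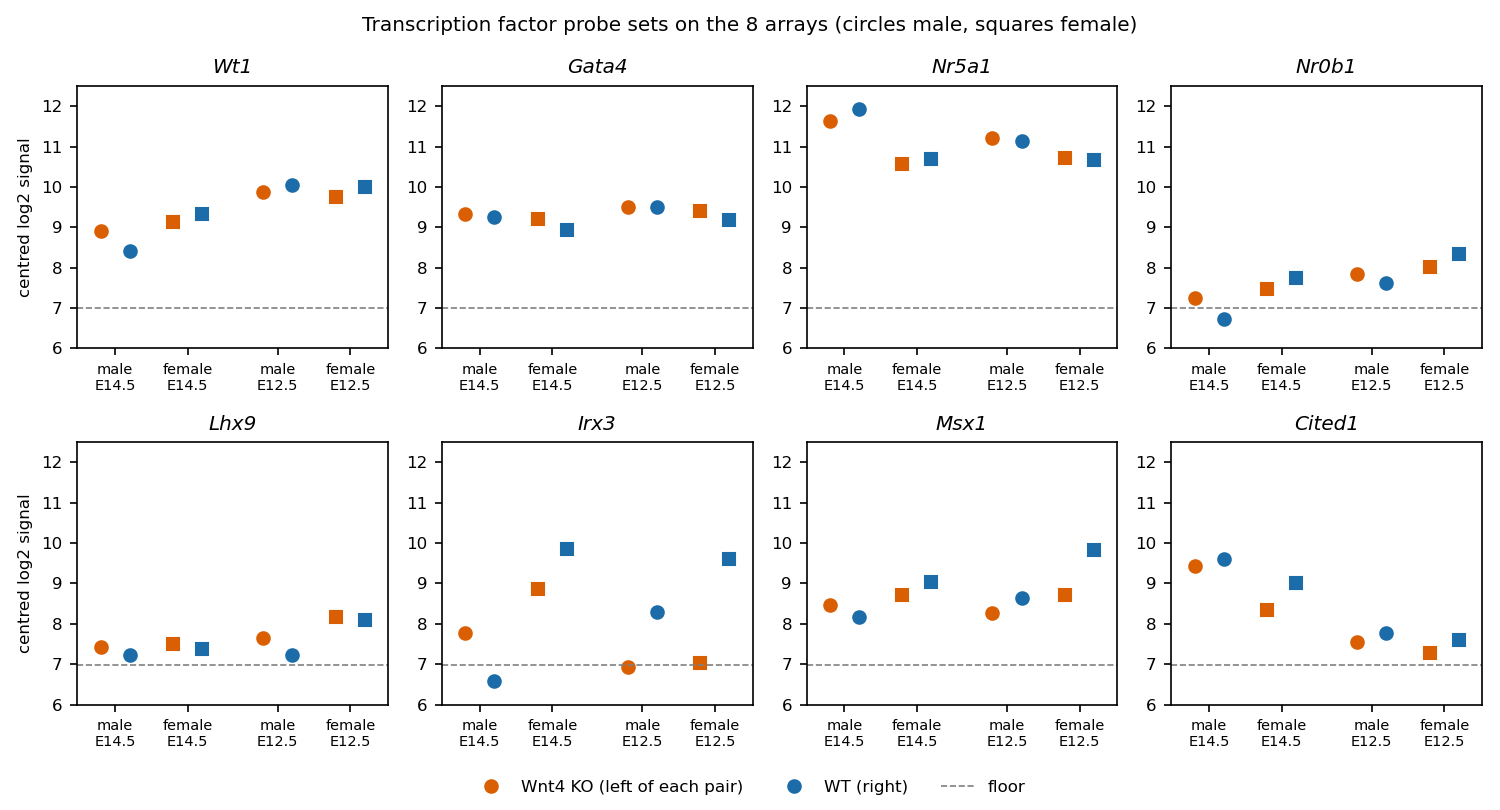
Centred log2 signal (vertical axis) of the representing probe set of each of the 8 measured genes on all 8 arrays, 1 point per array, KO to the left of WT, with the floor of 6.99 dashed. Levels are to be compared within a gene, not between genes: Irx3 spans from below the floor to 9.85, and Cited1 lies between 8.33 and 9.61 at E14.5 and between 7.27 and 7.77 at E12.5.

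KO against WT gonads was asked within each sex. Irx3 (probe set 99034_at, chr8:91798511-91801654 on GRCm38.p6) had the widest difference among the members. At E12.5 its signal was 7.03 in KO females, against 9.61 in WT females, a difference of -2.58. In males at E12.5 it was under the floor in KO gonads at 6.93, against 8.29 in WT gonads, which makes it at least 2.46-fold lower. The WT gonads of both sexes thus carried Irx3 signal at E12.5, and the KO gonads were at or near the floor. At E14.5 it was 8.85 in KO females, against 9.85 in the array labelled WT female (2-fold lower), while in males it was 7.77 in KO gonads, against 6.57 in WT gonads, under the floor, so at least 1.72-fold higher. In a bulk sample, fewer cells of a type and less RNA per cell cannot be told apart. Irx3 was at least 2-fold lower in KO gonads in 3 of the 4 pairs. Of all probe sets, at least 2-fold lower in KO were 0.0237% in E14.5 males, 0.189% in E14.5 females, 0.0355% in E12.5 males and 0.177% in E12.5 females. Only 3 probe sets (0.0355%) were at least 2-fold lower in both E12.5 pairs, namely those of Irx3, Tpbg and Apcdd1, with Tpbg and Apcdd1 named after their values were seen.

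Msx1 (101526_at, chr5:37820491-37824585), a homeobox gene of BMP-responsive tissues, showed a smaller difference with its widest point at the same place. At E12.5 its signal was 8.72 in KO females, against 9.83 in WT females (2.17-fold lower), and 8.26 in KO males, against 8.64 in WT males. At E14.5 it was 8.72 in KO females, against 9.04 in the array labelled WT female, and 8.47 in KO males, against 8.18 in WT males. Msx1 was thus lower in KO in 3 pairs and higher in males at E14.5, the same signs as Irx3. Wt1 had these signs too, and the share of all probe sets with them was not counted. Cited1 (160705_at, chrX:102247378-102252181) was lower in KO in all 4 pairs. Its signal was 9.42 in KO males and 9.61 in WT males at E14.5, 8.33 in KO females and 9.01 in the array labelled WT female, 7.54 in KO males and 7.77 in WT males at E12.5, and 7.27 in KO females and 7.61 in WT females at E12.5. The widest of these, -0.67, is in the pair that includes the array labelled WT female E14.5. Of all probe sets, 3.77% were lower in KO in every pair.

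Nr0b1 (93141_at, chrX:86191775-86195947), the repressor of Nr5a1 activity, was on opposite sides of WT in the sexes. In females it was 7.47 in KO against 7.74 in the array labelled WT female at E14.5, and 8.02 in KO against 8.34 in WT at E12.5. In males it was 7.25 in KO against a WT value under the floor at E14.5, and 7.84 in KO against 7.62 in WT at E12.5. KO was therefore lower in both female pairs and higher in both male pairs, a pattern shared by 13.9% of probe sets. Lhx9 (93643_at, chr1:138825186-138848839), a LIM homeodomain factor of the early ridge, and Gata4 (102713_at, chr14:63198914-63271712), a zinc finger factor, were higher in KO in all 4 pairs, as were 3.14% of probe sets. Lhx9 differed by 0.18 in males and 0.11 in females at E14.5, and by 0.42 in males and 0.06 in females at E12.5. Gata4 differed by 0.07 in males and 0.27 in females at E14.5, and by 0.22 in females at E12.5, with the male E12.5 pair at 9.50 in KO and 9.49 in WT. On all 8 arrays Gata4 lay between 8.93 and 9.50, the narrowest range among the 8 genes. Wt1 (93856_at, chr2:105126529-105173614), a zinc finger factor of Sertoli and coelomic cells, was lower in KO in 3 pairs by 0.16 to 0.24 and higher in males at E14.5 by 0.48. Nr5a1 (101665_at, chr2:38692656-38714542) was lower in KO by 0.31 in males and 0.14 in females at E14.5, and higher by 0.08 in males and 0.04 in females at E12.5. All of these differences are under 1.5-fold and none has a replicate of its own.

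No member passed the test in either sex. In limma's moderated fit with Benjamini-Hochberg adjustment, 0 of 8452 probe sets (0.0%) passed for KO against WT in females and 0 (0.0%) in males. At an unadjusted p under 0.05, 11.4% of probe sets and 5 of 8 members differed in females, and 4.79% of probe sets and 2 members in males. In females the fitted differences averaged over the stages were -1.79 ± 0.60 for Irx3 (adjusted p = 0.436), -0.72 ± 0.25 for Msx1 (adjusted p = 0.436) and -0.51 ± 0.10 for Cited1 (adjusted p = 0.433), where ± is the SE. Wt1 was at -0.22 ± 0.16 and Nr0b1 at -0.29 ± 0.05, while Gata4 was at 0.24 ± 0.06. Without the array labelled WT female E14.5, the female difference is that of the E12.5 pair, -2.58 for Irx3, -1.12 for Msx1 and -0.34 for Cited1. Across the 8 members the median was -0.26, against -0.02 for all probe sets. In males the members lay between -0.26 for Irx3 and 0.30 for Lhx9. Without the E14.5 males only the E12.5 pair remains, at -1.30 or lower for Irx3 and 0.42 for Lhx9. The test of male minus female KO difference called 0 probe sets (0.0%). At an unadjusted p under 0.05, 11.5% of probe sets and 1 member, Nr0b1, differed. The fitted values were 0.53 ± 0.07 for Nr0b1 (adjusted p = 0.434), 1.53 ± 0.85 for Irx3 (adjusted p = 0.48) and 0.67 ± 0.35 for Msx1 (adjusted p = 0.468). Without the E14.5 males they were 0.51 for Nr0b1, 0.49 for Irx3 and 0.33 for Msx1. With all arrays, the Nr0b1 and Irx3 values and their SEs use male signals under the floor that were raised to it.

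With the sexes pooled by stage, 7 of 8452 probe sets (0.0828%) passed at E12.5 and 0 (0.0%) at E14.5, and no member was among them. At an unadjusted p under 0.05 these were 3.69% of probe sets and 3 members at E12.5, and 4.18% of probe sets and 2 members at E14.5. Irx3 was at -1.94 ± 0.44 at E12.5 (adjusted p = 0.445) and Msx1 at -0.75 ± 0.21 (adjusted p = 0.797). Without a floor and filter both passed, Irx3 at -1.97 with an adjusted p of 0.00456 and Msx1 at -0.75 with an adjusted p of 0.0255. That fit tested all probe sets except the 66 controls and called more of them than the reported fit, as given in the closing section. Under quantile normalization or without the intensity trend no probe set passed in this comparison. Cited1 was at -0.43 ± 0.13 at E14.5 (adjusted p = 0.966), where its male pair alone differed by -0.19. Comparison of the E14.5 with the E12.5 KO difference, a test added after seeing the data, called 0 probe sets (0.0%), with 3.58% of probe sets and 2 members at an unadjusted p under 0.05. Irx3 had 1.83 ± 0.63 there (adjusted p = 1.0).

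**Figure D2:**
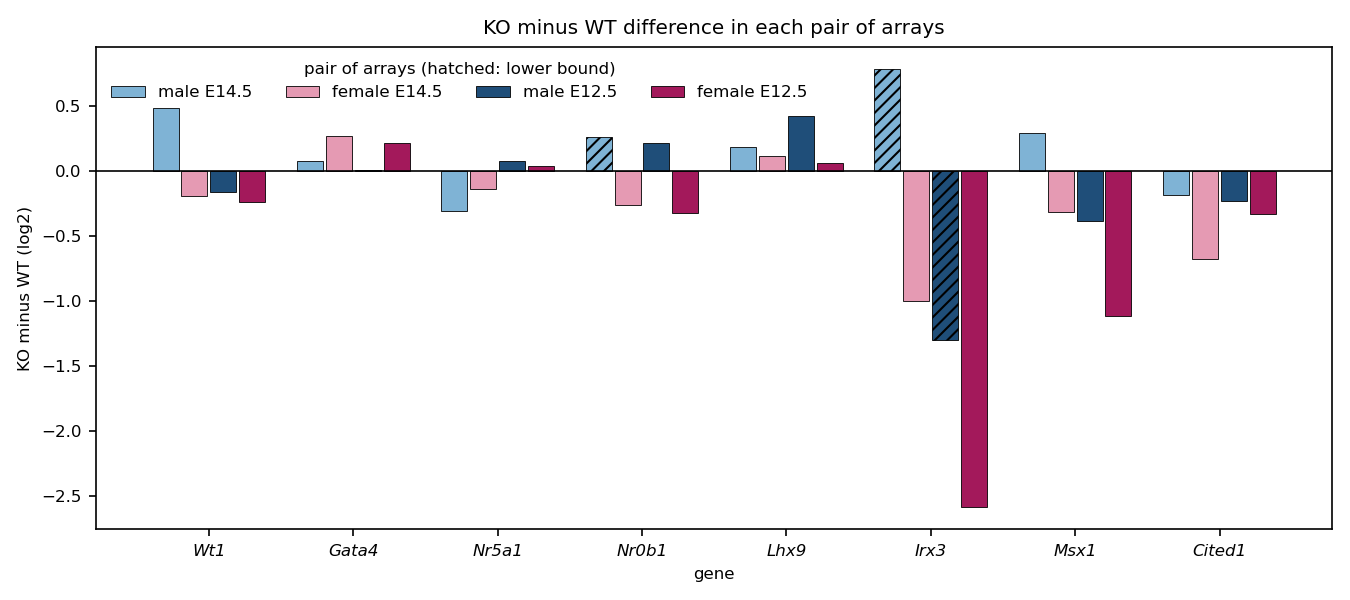
KO minus WT difference in centred log2 signal for each of the 8 genes, in males and females at E14.5 and E12.5. Hatched bars are lower bounds, where 1 array of the pair was under the floor. Irx3 in females at E12.5 extends to -2.58, and its bar in males at E14.5 points the other way.

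Markers of other cell types differed in some of the same pairs. The counts below are to be read against all probe sets. Of these, 53.1% were lower in KO in females at E14.5. In females at E12.5, 35.3% were higher and 54.0% lower. In males, 45.4% were higher and 43.3% lower at E14.5, and 52.9% higher and 36.2% lower at E12.5. In the females at E14.5, 7 of the 9 fitted Leydig and steroidogenic genes of a list of 10 were lower in KO, with a mean signal of 8.22 in KO females and 9.02 in the array labelled WT female. Of 8 fitted Sertoli genes, 7 were also lower there, with a mean of 8.01 in KO females and 8.66 in the array labelled WT female. Among E12.5 females, 6 of the 9 Leydig genes were higher in KO, and 6 of 7 pregranulosa genes, a list that holds Wnt4 itself, were lower, with a mean of 8.33 in KO females and 9.08 in WT females. In the males at E14.5, all measured members except Nr5a1 and Cited1 were higher in KO. So were 6 of 7 pregranulosa genes, with a mean of 8.19 in KO males and 7.74 in WT males. The same held for 6 of 7 coelomic epithelium genes (9.49 in KO and 9.12 in WT males) and 6 of 8 endothelial genes (7.83 in KO and 7.73 in WT males). All 9 Leydig genes (9.06 in KO and 9.58 in WT males) and all 8 Sertoli genes (8.87 in KO and 9.38 in WT males) were lower there. In the males at E12.5, 6 of 6 measured pregranulosa genes were lower in KO, and 8 of 8 endothelial genes were higher (8.58 in KO and 8.36 in WT males). Mesonephros and duct genes, from tissue that adjoins the gonad, averaged 8.09 in KO females and 8.27 in WT females at E12.5. The part of these markers in the differences of the members was not tested.

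Male gonads differed from female gonads at E12.5 in 3 members, Nr5a1, Nr0b1 and Lhx9. This stage does not involve the E14.5 male arrays except in the spread. Of all probe sets, 16.3% passed, 7.79% higher in males and 8.51% lower. Nr5a1 was higher in males, at 11.20 in KO and 11.13 in WT males, against 10.70 in KO and 10.66 in WT females, with a fitted difference of 0.48 ± 0.11 (adjusted p = 0.0497). That call was lost under quantile normalization (adjusted p = 0.0574) and without the intensity trend (adjusted p = 0.0556). Lhx9 was lower in males, at 7.66 in KO and 7.23 in WT males, against 8.17 in KO and 8.10 in WT females (-0.69 ± 0.07, adjusted p = 0.022). Nr0b1 was lower in males, at 7.84 in KO and 7.62 in WT males, against 8.02 in KO and 8.34 in WT females (-0.45 ± 0.05, adjusted p = 0.0221). The sexes did not overlap in these 3 genes, as in many others: both males lay above both females for 28.6% of all probe sets, and below them for 31.1%.

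Among the remaining members at E12.5, Msx1 differed by -0.82 ± 0.25 (adjusted p = 0.0829), and Irx3 by -0.68 ± 0.60 (adjusted p = 0.487). The Irx3 value depends on single arrays, being 0.11 without WT females and 0.36 without KO males at E12.5. Without the E14.5 males the E12.5 differences were 0.48 for Nr5a1, -0.45 for Nr0b1 and -0.69 for Lhx9, but with 1 residual degree of freedom no probe set passed, and the same held when any 1 of the 8 arrays was left out. Amh, the Sertoli hormone and an Nr5a1 target, was at 9.04 in KO and 9.19 in WT males, against 7.83 in KO and 7.82 in WT females at E12.5. It was the 1 gene of 10 fitted in a list of genes driven by Nr5a1 that passed, at 1.29 (adjusted p = 0.0214). Of 8 fitted Sertoli genes, 5 passed as higher in males and none as lower. In the list of 13 other fitted gonad transcription factors, Nr2f2 (0.59), an interstitial cell factor, and Zfpm1 (0.26), a partner of GATA factors, passed as higher in males and none as lower.

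At E14.5, 6 members passed, but so did 77.5% of all probe sets, 39.5% higher and 38.0% lower in males. Both males lay below both females for 42.2% of probe sets. Nr5a1 was 11.62 in KO and 11.94 in WT males, against 10.56 in KO females and 10.70 in the array labelled WT female (1.15 ± 0.11, adjusted p = 0.000513). Cited1 was higher in males by 0.85 ± 0.10 (adjusted p = 0.00105) and Gata4 by 0.23 ± 0.06 (adjusted p = 0.0156). Gata4 was at -0.16 when the values were used as deposited without centring, which was still above the median of all probe sets in that fit, given in the closing section. Nr0b1 was lower in males (-0.49 ± 0.05, adjusted p = 0.000768), at 7.25 in KO males and under the floor in WT males, against 7.47 in KO females and 7.74 in the array labelled WT female. Wt1 was lower in males (-0.56 ± 0.16, adjusted p = 0.0237), with 8.90 in KO and 8.41 in WT males, against 9.12 in KO females and 9.32 in the array labelled WT female. Irx3 was lower in males (-1.98 ± 0.60, adjusted p = 0.0316), at 7.77 in KO and under the floor in WT males, against 8.85 in KO females and 9.85 in the array labelled WT female, and its call was lost when any 1 array was left out. Lhx9 and Msx1 did not pass. Without the array labelled WT female E14.5, Nr5a1 (1.24), Cited1 (1.01) and Nr0b1 (-0.52) still passed, while Wt1 (-0.59), Gata4 (0.21) and Irx3 (-2.77) did not. Cited1 lost its call without the KO or the WT male at E14.5. Such refits have 1 residual degree of freedom, and the share of all probe sets they called is not given here. The 77.5% belongs to the full fit, so whether the kept calls exceed the background of their own fit cannot be told.

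**Figure D3:**
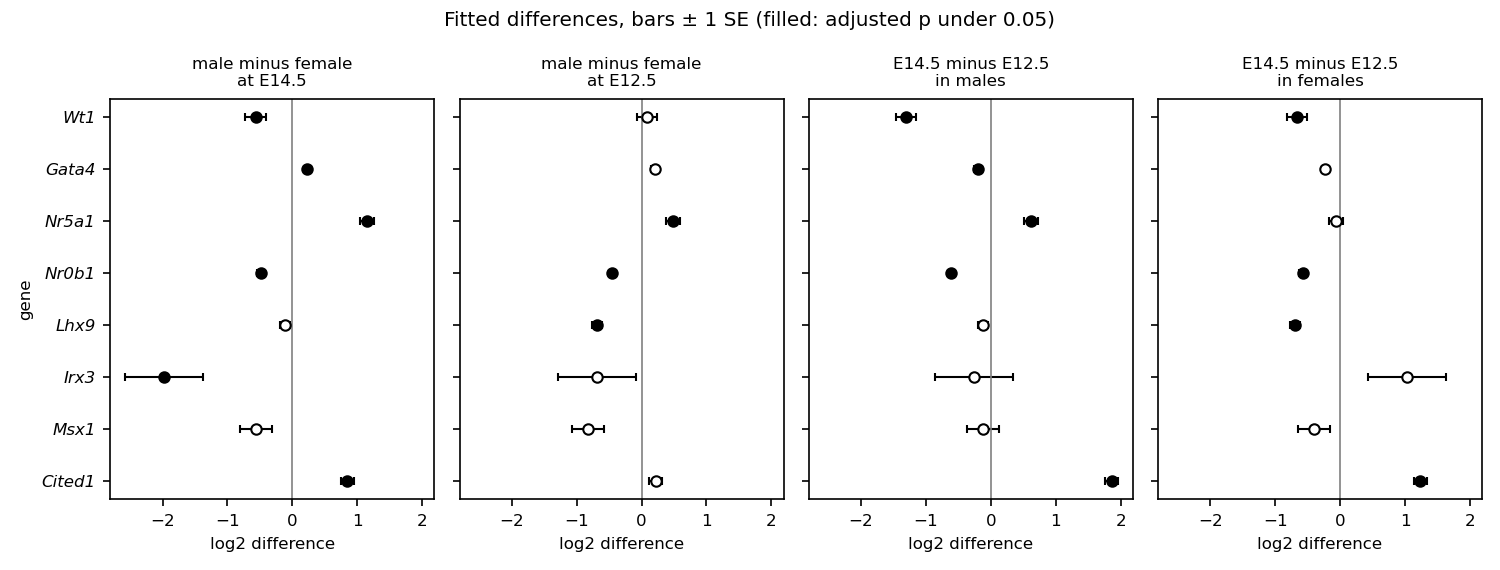
Fitted log2 differences with SE bars (horizontal axis) for each of the 8 genes in 4 comparisons, with filled points passing an adjusted p of 0.05. Nr5a1 lies on the male side at both stages and Nr0b1 on the female side.

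From E12.5 to E14.5 in females, 4 members passed, in a background of 23.1% of probe sets (8.41% higher and 14.6% lower at E14.5). Cited1 was higher at E14.5, at 8.33 in KO and 9.01 in the array labelled WT female, against 7.27 in KO and 7.61 in WT at E12.5 (1.23 ± 0.10, adjusted p = 0.00883). The other 3 were lower at E14.5. Lhx9 was 7.49 in KO and 7.38 in the array labelled WT female at E14.5, against 8.17 in KO and 8.10 in WT at E12.5 (-0.70 ± 0.07, adjusted p = 0.011). Nr0b1 fell by 0.58 (adjusted p = 0.0102), with -0.55 in KO and -0.61 in WT females. Wt1 fell by 0.66 ± 0.16 (adjusted p = 0.0447), with -0.64 in KO and -0.68 in WT females, but not under quantile normalization (adjusted p = 0.0793) or without the intensity trend (adjusted p = 0.0507). KO and WT females thus had like differences in both genes. Gata4 (-0.23 ± 0.06, adjusted p = 0.0507), Nr5a1, Msx1 and Irx3 did not pass. Irx3 was 3.55-fold higher at E14.5 in KO females and 1.18-fold higher in WT females. Without the E14.5 males the fit gave 1.23 for Cited1, -0.70 for Lhx9, -0.58 for Nr0b1 and -0.66 for Wt1, with 0 calls over all probe sets. Leaving out the array labelled WT female E14.5 gave 1.06 for Cited1, -0.67 for Lhx9, -0.55 for Nr0b1 and -0.64 for Wt1. No probe set passed when that array, or any other 1 array, was left out.

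In males, 5 members passed, in a background of 77.8% (38.0% higher and 39.9% lower at E14.5). Cited1 was higher at E14.5 by 1.86 ± 0.10 (adjusted p = 9.94e-05) and Nr5a1 by 0.62 ± 0.11 (adjusted p = 0.00469), though Nr5a1 was -0.16 on the values as deposited. That value was still above the median of all probe sets as deposited, given in the closing section. Wt1 fell by 1.30 ± 0.16 (adjusted p = 0.00114), with 8.90 in KO and 8.41 in WT males at E14.5, against 9.88 in KO and 10.04 in WT males at E12.5. Nr0b1 fell by 0.61 (adjusted p = 0.00034) and Gata4 by 0.20 ± 0.06 (adjusted p = 0.028), Gata4 being 0.0254 under quantile normalization. In WT males at E14.5 Nr0b1 was under the floor, at 6.72, and was raised to it. Its stage difference was -0.64 or lower in WT males and -0.59 in KO males. The fitted Nr0b1 value and its p-value thus rest in part on the raised signal. Leaving out any 1 array ended the Gata4 call, and leaving out the WT male of either stage ended that of Nr5a1. The share of all probe sets called in such refits is likewise not given here, and the 77.8% belongs to the full fit. A comparison of the male with the female stage difference, added after seeing the data, called 3 members as higher in males, against 69.0% of all probe sets (35.2% higher and 33.8% lower): Nr5a1 (0.67 ± 0.15, adjusted p = 0.0144), Lhx9 (0.57 ± 0.10, adjusted p = 0.00621) and Cited1 (0.63 ± 0.14, adjusted p = 0.0131). Wt1 missed at -0.65 ± 0.22 (adjusted p = 0.0518). No member passed there without the KO female E14.5 array, and between 1 and 3 did without each of the others. The 69.0% belongs to the full fit, and the shares of all probe sets in these refits are not given here.

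Nr5a1 was read by 3 probe sets above the floor, 101665_at, 100700_s_at and 100701_r_at, and 2 more were under it on all 8 arrays, as were the second probe sets of Nr0b1 and Lhx9. At E12.5 the male minus female difference was 0.48 by 101665_at, 0.43 (adjusted p = 0.175) by 100700_s_at and 0.55 (adjusted p = 0.069) by 100701_r_at, so only 101665_at passed. At E14.5 101665_at gave 1.15, 100700_s_at 1.0 and 100701_r_at 1.19, and all 3 passed. For the male stage difference, 101665_at gave 0.62, 100700_s_at 0.21 (adjusted p = 0.344) and 100701_r_at 0.35 (adjusted p = 0.0896), so the call rests on 1 probe set. At E14.5, KO minus WT was -0.57 by 100700_s_at in females, -0.14 by 101665_at and -0.20 by 100701_r_at.

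**Figure D4:**
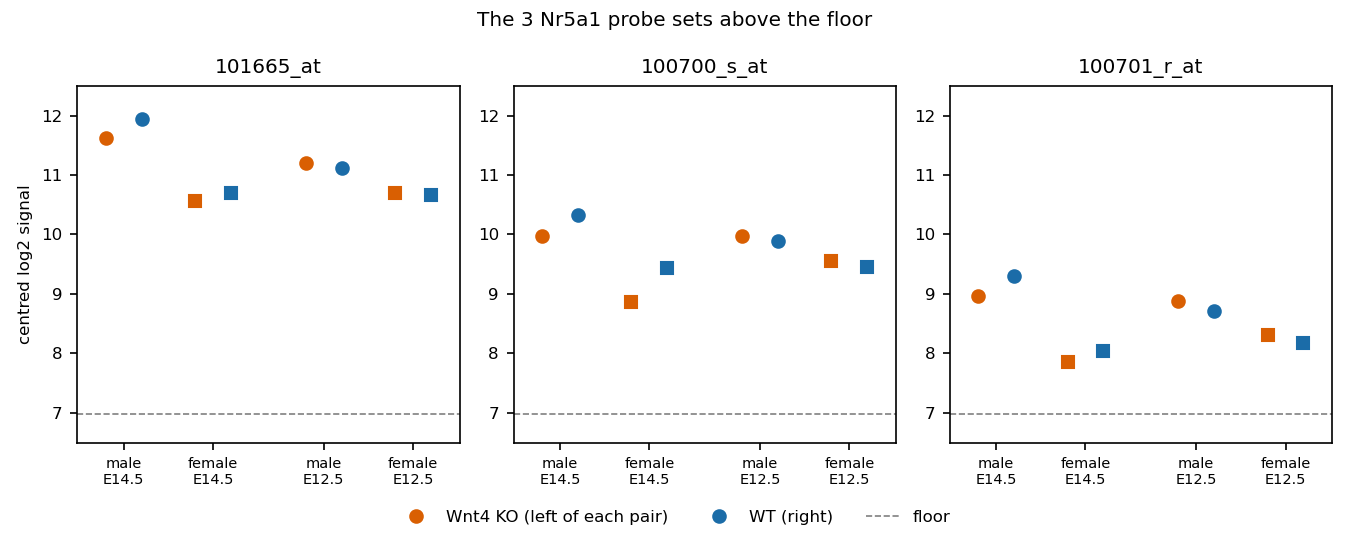
Centred log2 signal (vertical axis) of the 3 Nr5a1 probe sets above the floor on the 8 arrays, KO left of WT, males as circles and females as squares. In each probe set both males lie above both females of the same stage, as do those of 44.4% of all probe sets at E14.5 and 28.6% at E12.5.

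Genes known to be driven by Nr5a1 were fitted for 10 of 13 listed. Of these 10, Star, Cyp11a1, Cyp17a1, Hsd3b1, Insl3, Scarb1 and Fdx1 are also in the Leydig list, and Amh and Hsd17b3 in the Sertoli list. Counts of the Nr5a1-driven genes thus rest largely on the same probe sets as those lists. In males, 7 passed as higher at E14.5 than at E12.5 and none as lower, and at E14.5, 6 passed as higher in males, both against the same high backgrounds as above. No gene of the list passed for stage in females. For KO against WT at E12.5, Star, which carries cholesterol into mitochondria, passed at 1.0 ± 0.09 (adjusted p = 0.0433), but no probe set did under quantile normalization or without the intensity trend. In the same comparison Chgb (1.18) and Nefm (0.58), of a list of neural crest and nerve genes, also passed (adjusted p = 0.0433 each). Th, of that list, was at 0.58 (adjusted p = 0.0699) and the adrenocortical receptor gene Mc2r at 0.39 (adjusted p = 0.119). The part of these cells in the Star difference was not tested. At E14.5 none of the Nr5a1-driven genes passed, and all 10 were negative with a median of -0.55, including Cyp17a1 at -1.40 (adjusted p = 0.61), Cyp11a1 at -1.13 and Hsd3b1 at -1.04, all enzymes of steroid synthesis. Over all probe sets the median in this comparison was -0.01, and 44.5% were positive. Without the array labelled WT female E14.5, only the male pair remains. In it, all 10 were lower in KO with a median of -0.56, and 43.3% of all probe sets were lower. There Cyp17a1 differed by -0.58, Cyp11a1 by -0.72 and Hsd3b1 by -0.77.

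Other gonad transcription factors numbered 13 fitted of 28 listed. None passed for KO in females or males. In females, 4 passed as lower at E14.5 and none as higher: Sox11 (-0.91), Cbx2 (-0.69), a Polycomb gene upstream of Nr5a1, Nr2f2 (-0.64) and Sox4 (-0.57). Over all probe sets, 14.6% passed as lower there and 8.41% as higher. BMP ligands and BMP-responsive genes were fitted for 9 of 11. No member of that list passed for KO in females, where Gata2 was at -0.45, Id1 at -0.35, Id3 at -0.32 and Bmp5 at 0.25.

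The genes whose signals ran most like each member's over the 8 arrays are a description across arrays that share the E14.5 male difference. Irx3 was most like Apcdd1, a Wnt inhibitor (r = 0.974), and then Prrx2 (r = 0.913). Msx1 was most like Fst, the ovarian follistatin (r = 0.955), and Dusp9 (r = 0.951). Fst was 7.09 in KO females and 9.02 in WT females at E12.5. Nr5a1 was most like Gdnf (r = 0.995) and Nr4a1 (r = 0.992), and Cited1 like Ntn1 (r = 0.993) and Fhl1 (r = 0.985). Wt1 was most like Sf3a1 (r = 0.993) and Dek (r = 0.989), Nr0b1 like Acyp1 (r = 0.989) and Jak2 (r = 0.989), Lhx9 like Tpgs1 (r = 0.941) and Gbp2b (r = 0.938), and Gata4 like Myrf (r = 0.905) and Arap3 (r = 0.881). Over the 6 arrays other than E14.5 males, Apcdd1 was again among the first for Irx3 (r = 0.980), after Tdrp (r = 0.992), and Ntn1 for Cited1 (r = 0.987), before Fbxo3 (r = 0.982). For Msx1, Ap3b1 (r = 0.988) and Lef1, a mediator of Wnt signals (r = 0.985), came first, and for Nr5a1, Rbbp6 (r = 0.999) and Gpx3 (r = 0.997). Wt1 was then closest to Pcnt and Psmd3, Nr0b1 to Apba3 and Msh3, Lhx9 to Ssu72 and Irf5, and Gata4 to Ccdc71l and Pde6g. Signals under the floor were not raised to it for these correlations. Ccdc71l was under the floor on all 6 arrays, so its likeness to Gata4 rests on signals under the floor alone. Pcnt ran only from just under the floor to just above it. Among the names over 8 arrays, Jak2, Gbp2b, Arap3 and Fst were under the floor on at least 1 array. For Msx1, Nr5a1, Wt1, Nr0b1, Lhx9 and Gata4 the names over 6 arrays were other than those over 8.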

How the data were processed

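Total RNA of dissected gonads was hybridised to 8 one-colour arrays. The authors deposited 1 normalized value per probe set and array. Their log2 scale was read from their range (2.36 to 14.96), and the submitters' processing notes name MAS5, without a version or role. In the KO male E12.5 column, deposited with other content in places, 14 cells held date serials (41278 to 41284) and were set to missing. Array medians ran from 7.04 to 7.85, and every array was shifted by -0.34 to 0.47 to share 1 median, values under the floor of 6.99 (40th percentile) were raised to it, 66 control probe sets were dropped, and probe sets above it on at least 2 arrays were kept (8452, 6353 genes). In the annotation, 10833 probe sets had 1 gene, 396 several and 1193 no gene. The number of arrays limits the precision. limma 3.58.1 (R 4.3.3) was fitted across all kept probe sets with an intensity trend, with sex, genotype and stage terms and 2 residual degrees of freedom, two-sided, adjusted by Benjamini-Hochberg at 0.05. The script was tested on simulated data. P-values rest on the spread left between single arrays, not on replicates. The 9 genes and the lists were chosen with earlier results of these data known. Where a gene had several probe sets, that with the highest mean stood for it. From a list, at most 4 genes with the widest fitted differences are named, and the 2 genes most like a member by Pearson r. Other lists (adrenocortical, coelomic, germ cell, endothelial, nerve) were read for other cell types: their mean signals ranged from 7.31 to 7.83, 8.80 to 9.49, 8.15 to 9.44, 7.73 to 8.58 and 7.04 to 7.88 over the arrays. Alternatives were another floor, no floor, no centring, quantile normalization, no trend and leaving out arrays.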

Additional observations from a re-analysis of the deposited data

Results flagged for a closer look

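In each pattern below, both samples of one group differed one way and both of the other the opposite way. Opposite signs of this kind can also arise at random. The Nr0b1 pattern, KO lower in both female pairs and higher in both male pairs, was shared by 13.9% of all probe sets. For the other patterns the share of all probe sets was not counted, so whether they exceed the background was not tested. Wt1 male minus female was -0.23 in KO and -0.90 in WT at E14.5, against 0.12 in KO and 0.04 in WT at E12.5, and the tested difference was -0.65 ± 0.22 (limma adjusted p = 0.0518). Nr5a1 KO minus WT was -0.31 in males and -0.14 in females at E14.5, against 0.08 in males and 0.04 in females at E12.5. Its probe set 100700_s_at gave -0.35 in males and -0.57 in females at E14.5, against 0.08 in males and 0.10 in females at E12.5. Probe set 100701_r_at gave -0.34 in males and -0.20 in females at E14.5, against 0.17 in males and 0.13 in females at E12.5. The tested difference was -0.28 ± 0.12 for 101665_at (adjusted p = 1.0) and -0.55 ± 0.13 for 100700_s_at (adjusted p = 0.657). For Nr5a1 by 100701_r_at, E14.5 minus E12.5 was 0.09 in KO males and 0.60 in WT males, against -0.45 in KO females and -0.13 in WT females, and the difference was 0.63 ± 0.21 (adjusted p = 0.0479), in a comparison that 69.0% of all probe sets passed (35.2% as higher in males). Nr0b1 KO minus WT was at least 0.26 at E14.5 (WT under the floor) and 0.21 at E12.5 in males, against -0.26 at E14.5 and -0.32 at E12.5 in females, with a difference of 0.53 ± 0.07 (adjusted p = 0.434). Msx1 E14.5 minus E12.5 was 0.21 in KO males and 0.01 in KO females, against -0.46 in WT males and -0.80 in WT females, and that difference was 0.74 ± 0.29 (adjusted p = 1.0).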

How the results depend on the processing

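No paired analysis was possible because the labels give no replicate numbers and each group has 1 array. Members called in the male minus female comparison at E12.5 numbered 5 on values as deposited (3 as reported) and 2 under quantile normalization or without the intensity trend. Over all probe sets, 2873 passed there as deposited (1377 as reported). Members called numbered 2 for KO at E12.5 without floor or filter (0 as reported), where 80 probe sets passed over all (7 as reported). Without both E14.5 male arrays, 0 members and 0 probe sets passed for stage in females and for sex at E12.5. Leaving out 1 array in turn gave 0 members for stage in females, for sex at E12.5 and for every KO comparison, in fits with 1 residual degree of freedom. Members still passed in some such fits for stage in males, sex at E14.5 and the stage difference between sexes. The full fits called 77.8%, 77.5% and 69.0% of all probe sets there, but the shares in these refits are not given here. Whether those calls exceed the background of their own fits cannot be told. Nr5a1 lost its call for sex at E12.5 under quantile normalization (adjusted p = 0.0574) and without the trend (0.0556), and Wt1 its call for stage in females (0.0793 and 0.0507). In males, Gata4 was lost for stage without any 1 array and Nr5a1 without either WT male array. Reversed values were Gata4 for stage in males, 0.0254 under quantile normalization, Gata4 for sex at E14.5, -0.16 as deposited, Nr5a1 for stage in males, -0.16 as deposited, and Irx3 for sex at E12.5, 0.11 without WT females and 0.36 without KO males of that stage, over a range from -1.725 to 0.36. The cause was not tested. The as-deposited Gata4 and Nr5a1 values are negative, but both lie above the medians of all probe sets given next for their comparisons, as they do in the main fit. As deposited, the median of all probe sets was -0.27 for stage in females, -0.69 for stage in males, 0.12 for sex at E12.5, -0.27 for sex at E14.5 and -0.41 for the stage difference between sexes, and changes are read relative to it. The share of calls higher was then 5.24% (36.5% as reported), 11.1% (48.8%), 85.6% (47.8%), 27.5% (51.0%) and 18.1% (51.0%). For stage in females it was 49.0% under quantile normalization and 47.7% without a floor. The fits compared next did not test the same probe sets, so their counts of calls are not shares of 1 set. Without a floor there was also no filter, and all of the 12488 probe sets except the 66 controls were tested, against 8452 as reported. With another floor, as deposited or under quantile normalization, the filter was applied anew. Calls over all probe sets were 3794 without a floor and 5156 as deposited for stage in females (1949 as reported), 3488 and 2873 for sex at E12.5 (1377), 10056 without a floor for stage in males (6577), and 9852 for sex at E14.5 (6551). For KO at E12.5 they were 80 without a floor, 3 with a floor at the 20th percentile, and 0 under quantile normalization or without the trend (7), and for KO at E14.5 67 without a floor, 206 without the WT and 219 without the KO female E14.5 array (0).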
